A study of Mus musculus with 5 samples.

Results

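Cluster 7 is 1 of 6 clusters of insulin-secreting beta cells in the authors' deposited annotation of single cells from mouse pancreatic islets. Its members are all cells that the deposited table numbers 7, and each was also annotated as beta, with 0 exceptions. It held 1434 of the 18221 cells, which is 7.87% of all cells and 12.4% of the 11607 beta cells. The deposited tables used here give a library, a cell type, a cluster and a position in a 2-dimensional embedding for each cell. Expression per gene was not analysed here, so the beta label could not be checked against the insulin genes Ins1 and Ins2.

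All mice carried the floxed Atf6a gene (Atf6afl/fl). The knockouts (cKO) had in addition RIP-Cre, a Cre recombinase under a rat insulin promoter, which the controls lacked, so that effects of Cre and of the deletion cannot be told apart. The deletion itself was not checked here, since it needs expression values. From 6 weeks of age the mice received a normal diet with 10% or a high-fat diet with 60% of energy as fat, and islets were taken at 22 weeks. Each library pooled the islets of 2 mice. Of the 5 libraries, 4 covered each combination of genotype and diet, and the fifth was another library of cKO mice on normal diet. The sample titles name a batch only for the cKO normal-diet libraries, as batch 1 and batch 2. The other libraries were counted as batch 1 here, which their titles do not state. There were 4406 beta cells from controls on normal diet, 4841 from controls on high-fat diet and 2093 from cKO mice on high-fat diet. The cKO normal-diet libraries were far smaller, with 31 beta cells among 40 cells in batch 1 and 236 among 1033 in batch 2. Batch 1 also had no alpha, delta or PP cell among its 40 cells, which allows up to 7.50%. These 2 libraries stand apart from the rest, and comparisons of shares that use them are given with and without each of them, except that ratios to clusters 1 and 3 rest on batch 2, since batch 1 had 0 cells of either cluster and gave only a bound. No barcode was shared by more than 2 libraries. Of 18081 distinct barcodes 140 occurred in 2 libraries, 23 cluster 7 cells (1.60%) carried such a barcode, and for 0 of these barcodes were both cells in cluster 7.

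Beta cells make and store large amounts of insulin and therefore load the endoplasmic reticulum heavily with protein to fold. ATF6α is a sensor of that compartment: when unfolded proteins accumulate it moves to the Golgi, is cut, and its released part enters the nucleus and switches on chaperone genes. A high-fat diet raises the demand for insulin, and mouse islets respond with more beta cells and more insulin per cell. Beta cells within an islet differ in maturity, stress and secretory state, and clustering of their transcriptomes divides them along such differences.

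Cluster 7 held a larger share of the beta cells on the high-fat diet than on the normal diet in control mice. On control normal diet 329 of 4406 beta cells belonged to cluster 7, a share of 7.47% with an exact (Clopper-Pearson) 95% interval of 6.71 to 8.28%. In the control high-fat library it was 833 of 4841, or 17.2% (16.2 to 18.3%). In the cKO high-fat library it was 259 of 2093, or 12.4% (11.0 to 13.9%), between both controls. These intervals do not overlap, but they cover counting error only, and differences among mice or islet preparations are not part of them.

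The pair of cKO normal-diet libraries gave the highest and the lowest share of all. Cluster 7 held 9 of 31 beta cells in batch 1, or 29.0% (14.2 to 48.0%), and 4 of 236 in batch 2, or 1.69% (0.464 to 4.28%). Their mean was 15.4% ± 19.3 (SD, n = 2), with both controls and the cKO high-fat library between them. The log2 ratio of batch 1 over batch 2 was 4.10 (95% counting interval 2.49 to 5.71). It is the sole measure of spread between replicates in this design. Replicate, batch and the small size of the batch 1 library cannot be told apart in it. Cluster 7 was the second-ranked beta cluster in batch 1 and the smallest, at rank 6, in batch 2. Its rank was 4 in either control library and 3 among high-fat cKO cells.

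**Figure D1:**
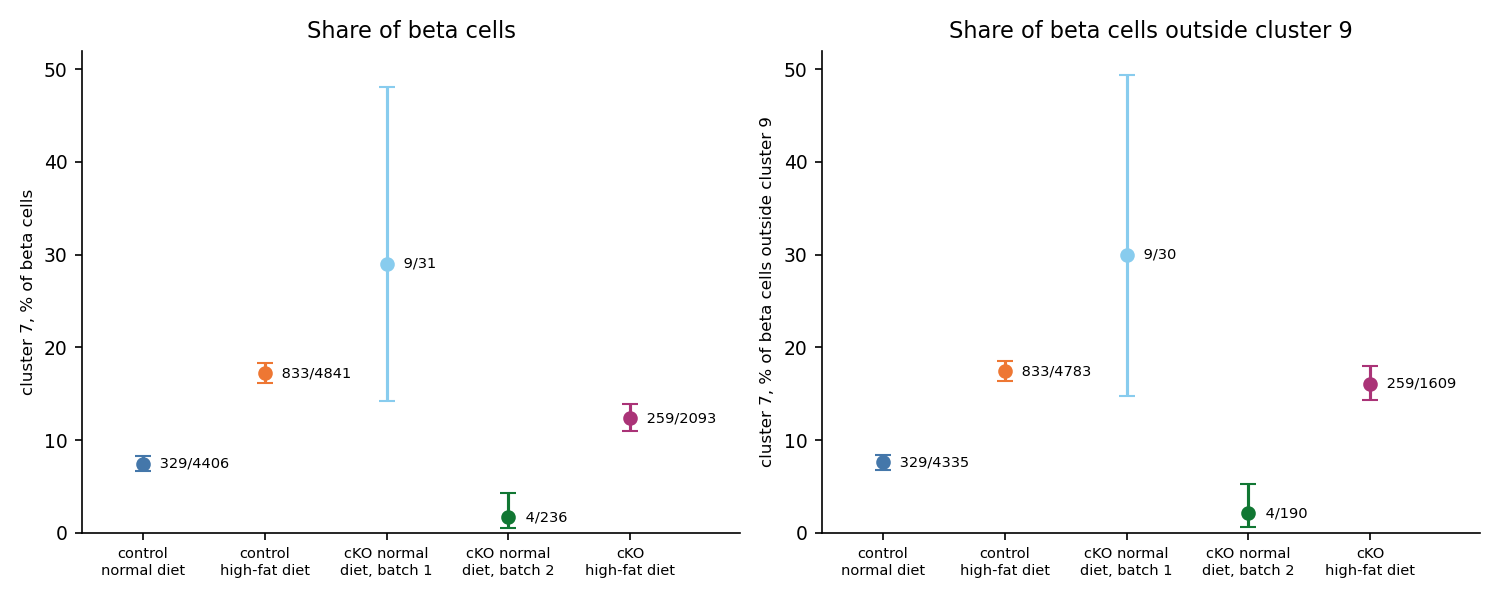
Cluster 7 as a percentage of beta cells (left) and of beta cells outside cluster 9 (right) in each library, as points with exact 95% binomial intervals and the cell numbers beside them. The cKO normal-diet libraries lie at 29.0% and 1.69% on the left, on either side of the other 3, and the cKO high-fat point moves from 12.4% on the left to 16.1% on the right.

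The comparison of diets in control mice asked how the makeup of the beta cells differs with high-fat feeding when ATF6α is present. The share of cluster 7 was 2.30-fold higher on the high-fat diet (95% counting interval 2.04 to 2.60), or 1.20 on the log2 scale (1.03 to 1.38). That interval excluded 0, as it did for 83.3% of the 6 beta clusters in this comparison. Each group had 1 library and no test of this pair across libraries was run. The difference was smaller than the gap of 4.10 between the cKO normal-diet replicates. Over all cells of the library the shares were 12.5% and 4.11%, a log2 ratio of 1.60.

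In cKO mice the direction of the same comparison changed with the normal-diet library. The cKO high-fat share of 12.4% lay below the normal-diet mean, with a log2 ratio of -0.31 (-1.08 to 0.46). This interval included 0, and that of 83.3% of the 6 beta clusters excluded 0. Batch 1 had 0 of 31 beta cells in clusters 1, 3 and 6, which added no counting error to their intervals. Its exact upper limit for each was 11.2%, so these intervals are too narrow and the 83.3% may be too high. With only batch 1 as the normal-diet group, which keeps to 1 batch if the high-fat library was also of batch 1, it was -1.23 (-2.04 to -0.42). With only batch 2 it was 2.87 (1.46 to 4.28). Divided by the diet ratio of control mice, the diet ratio of cKO mice was -1.52 on the log2 scale (-2.31 to -0.73), with -2.43 for batch 1 and 1.66 for batch 2 alone.

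The genotypes on the high-fat diet were compared between libraries that were both counted as batch 1. The share of cluster 7 was lower in the cKO library, at 12.4% against 17.2%, a log2 ratio of -0.48 (-0.66 to -0.29). Here the interval excluded 0 for 100% of the 6 beta clusters, and the difference was smaller than the replicate gap. Cluster 9 made up 23.1% of the cKO beta cells on this diet and 1.20% of the control ones. Among the beta cells outside cluster 9, cluster 7 was 16.1% (14.3 to 18.0%) in the cKO and 17.4% (16.4 to 18.5%) in the control library. On that denominator the log2 ratio was -0.11 (-0.30 to 0.07), within counting error.

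On the normal diet the mean of the cKO libraries was above the control by a log2 ratio of 1.04 (0.27 to 1.81), and the interval excluded 0 for 100% of the 6 beta clusters. For clusters 1, 3 and 6 the counts of 0 in batch 1 again added no counting error, so the 100% may be too high. Batch 1 alone was above the control (1.96, 1.15 to 2.77) and batch 2 alone below it (-2.14, -3.55 to -0.73). The genotypes on the normal diet therefore differed in opposite directions with the library used.

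When genotype or diet was pooled over the other factor, the 5 libraries of each comparison overlapped. The mean share of cluster 7 was 14.4% in the 3 cKO and 12.3% in the 2 control libraries (two-sided exact permutation p = 1.0), and 14.8% over the 2 high-fat libraries against 12.7% over the 3 others (exact permutation p = 0.90). With cluster 7 taken as a share of clusters 7 and 1, or of clusters 7 and 3, the exact permutation p lay between 0.50 and 0.80. Without batch 2, the differences by diet for clusters 7 and 1 and by genotype for clusters 7 and 3 changed sign. So did the differences in the share of beta cells, to -5.30 percentage points for genotype without batch 1 and -3.46 for diet without batch 2. In both pair shares the batch 1 value of 100% rests on 9 cells. All 6 adjusted p-values (Benjamini-Hochberg) were 1. The 10 possible splits allow no p below 0.1.

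Set against cluster 1, the largest beta cluster with 4360 cells, cluster 7 was more frequent in high-fat controls than in controls on normal diet, and more frequent still in high-fat cKO mice. There were 0.135 cluster 7 cells per cluster 1 cell (0.120 to 0.151) in the control normal-diet library, 0.485 (0.446 to 0.527) in the control high-fat library and 2.33 (1.86 to 2.94) in the cKO high-fat library. Only in the last of these 3 did cluster 7 outnumber cluster 1, with 259 against 111 cells. The ratio was 3.60-fold higher on the high-fat than on the normal diet in controls (3.12 to 4.15) and 4.81-fold higher in cKO than in control mice on the high-fat diet (3.80 to 6.10). Beside this difference in ratio, cluster 1 held 35.5% of the control but 5.30% of the cKO beta cells on this diet.

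Set against cluster 3, the neighbouring beta cluster with 1962 cells, the order of these libraries was the reverse. The control normal-diet library had 1.92 cluster 7 cells per cluster 3 cell (1.59 to 2.33), the control high-fat library 0.974 (0.885 to 1.07) and the cKO high-fat library 0.295 (0.256 to 0.339). In controls cluster 7 thus outnumbered cluster 3 on the normal diet and was about equal to it within counting error on the high-fat diet. Cluster 7 was outnumbered in the cKO high-fat library by 879 to 259 cells. In controls the ratio on the high-fat diet was 0.506-fold that on the normal diet (0.411 to 0.623), although cluster 7 itself had the larger share there. On the high-fat diet the ratio in cKO was 0.302-fold that in control mice (0.256 to 0.358). Beside this, cluster 3 held 17.7% of the control but 42.0% of the cKO beta cells on that diet.

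The cKO normal-diet libraries again lay at both ends. Batch 2 had 4 cluster 7 cells beside 88 cluster 1 and 57 cluster 3 cells, ratios of 0.0455 (0.0121 to 0.121) and 0.0702 (0.0185 to 0.190), the lowest of the libraries for both. Batch 1 had 9 cluster 7 cells and none of cluster 1 or 3. Counted against the 3 cells that a count of 0 allows, this gives 3.00 cluster 7 cells per cell of either cluster, above the ratios of the other libraries. That value takes the 9 cells as exact, and the exact interval reaches down to 1.97. With batch 2 alone as the normal-diet library, the cKO ratio to cluster 1 was 51.3-fold higher on the high-fat diet (18.4 to 143) and the ratio to cluster 3 was 4.20-fold higher (1.51 to 11.7). Both rest on the 4 cells of batch 2. For both clusters the batch 1 value of 3.00 lies above the cKO high-fat value, on the other side from batch 2. Its exact limit of 1.97 is above the cKO high-fat value for cluster 3 (0.295) but below that for cluster 1 (2.33).

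**Figure D2:**
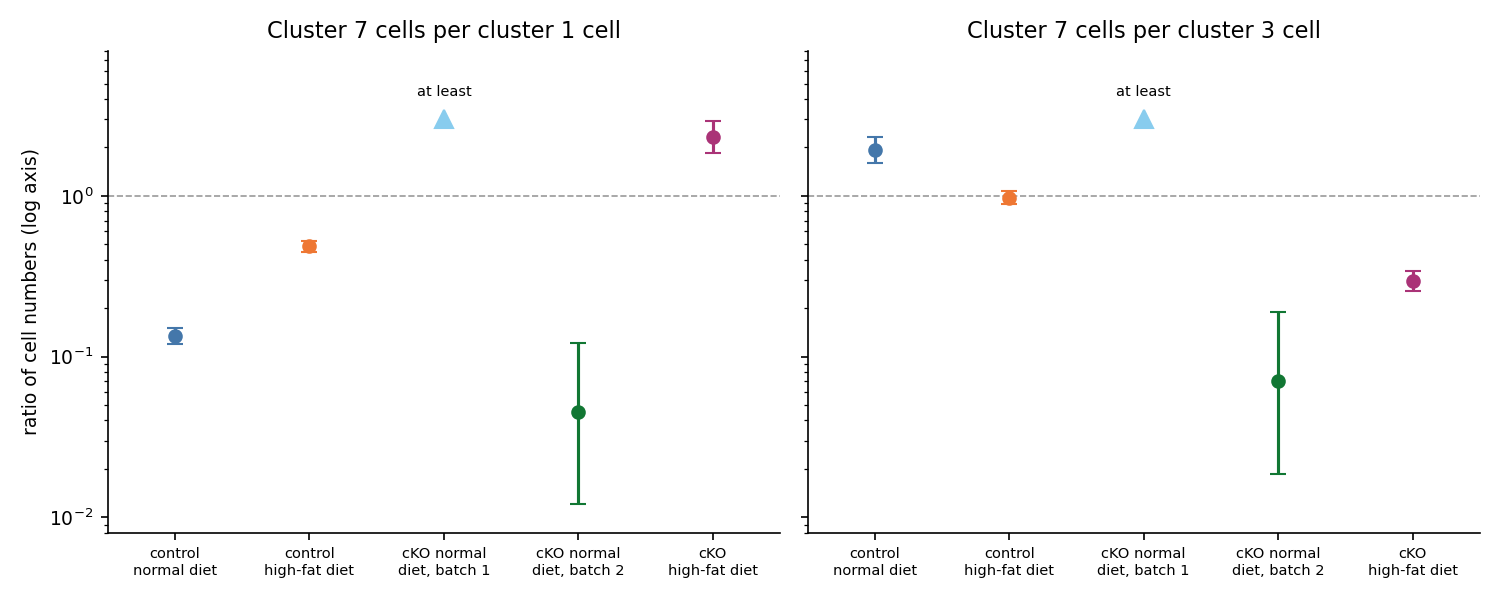
Number of cluster 7 cells per cluster 1 cell (left) and per cluster 3 cell (right) in each library on a log axis, with 95% intervals from the exact binomial interval. Triangles stand for the batch 1 library, which had 0 cells of clusters 1 and 3. They give its 9 cluster 7 cells over the 3 cells that a count of 0 allows. The exact interval of that library reaches down to 1.97. From control normal diet to control high-fat diet to cKO high-fat diet, the ratio goes from 0.135 to 2.33 on the left and from 1.92 to 0.295 on the right.

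In the deposited embedding cluster 7 formed the right-hand tip of the beta cell area. Clusters and embedding were derived from the same cells, so what follows describes the layout and tests nothing, and UMAP distances do not measure how far apart cells are in expression. The median position of cluster 7 was 3.58 embedding units from that of cluster 3, 6.75 from cluster 1 and 15.6 from cluster 5, the beta cluster farthest from it. Among the other endocrine cells the medians of the PP cells (pancreatic polypeptide), the nearer alpha cluster (glucagon) and the delta cells (somatostatin) were 6.76, 8.13 and 10.3 units away.

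**Figure D3:**
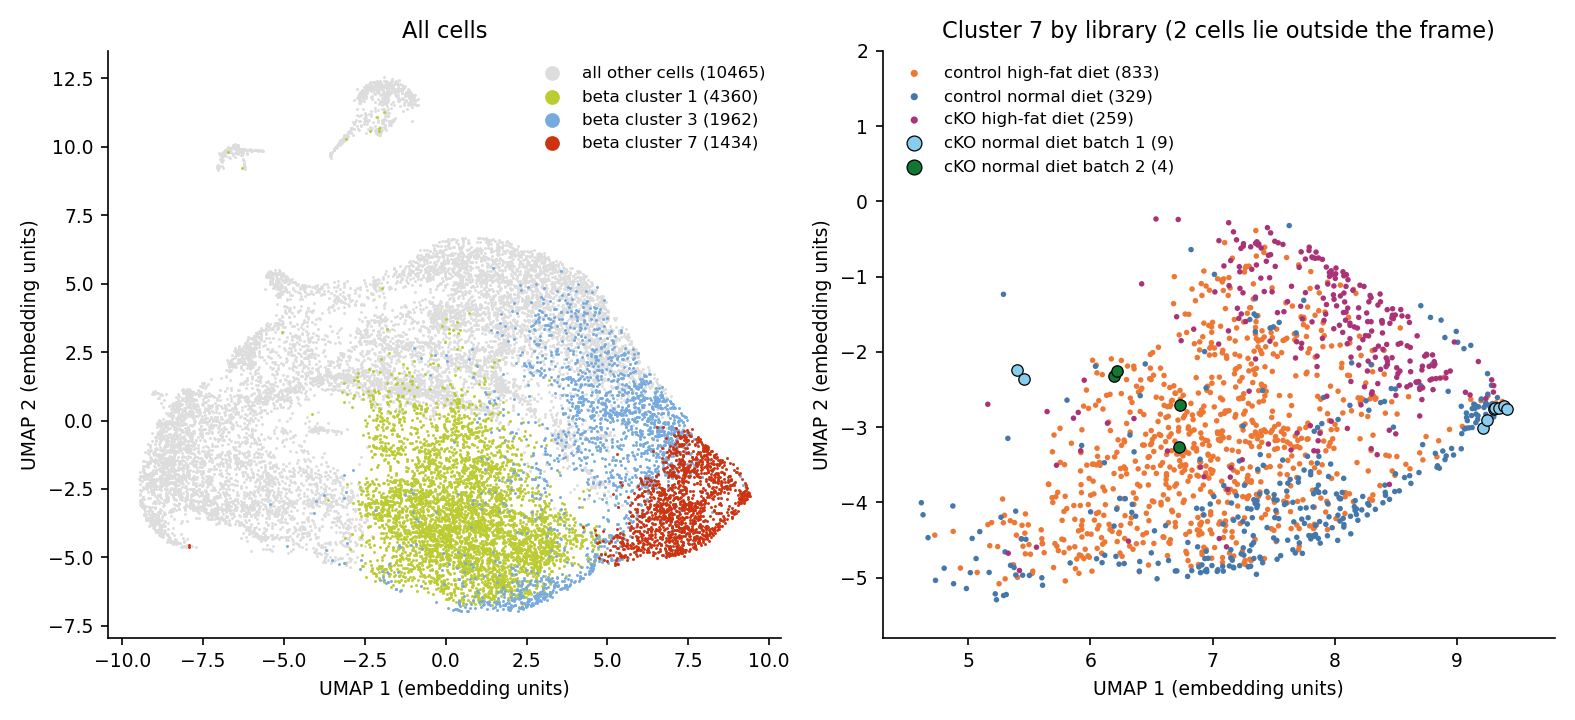
Left, all 18221 cells in the deposited embedding with beta clusters 1, 3 and 7 coloured. Right, the cluster 7 cells coloured by library, with the axes cut to their main area. Control normal-diet cells line the lower right edge, cKO high-fat cells the upper right and control high-fat cells the middle, and 7 of the 9 cells of cKO normal diet batch 1 sit together at the tip.

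Cluster 7 bordered cluster 3 and hardly any other class. Of the 30 nearest neighbours of its cells, 87.6% were in cluster 7, 11.6% in cluster 3 and 0.460% in cluster 1. Cluster 9 supplied none, and neither did delta, endothelial or neuron cells. Alpha, delta and PP cells together made up 0.0256% of the neighbours of cluster 7, beside 1.10% for cluster 5, 3.50% for cluster 1, 4.74% for cluster 6, 21.2% for cluster 3 and 30.5% for cluster 9. Only 8 of the 1434 cells (0.558%) had an alpha, delta or PP cell among their neighbours, against 7.84% of the cells of cluster 1, 55.1% of cluster 3 and 98.2% of cluster 9. Any cell that was not a beta cell was a neighbour of 53 cells (3.70%), a share of 1.81% with 10 neighbours and 13.9% with 100. Of these cells, 46 had an immune or acinar neighbour. In turn, 13 immune cells and 2 acinar cells had a cluster 7 cell among their own neighbours. Doublets were not called here, and their part in these placements was not tested.

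**Figure D4:**
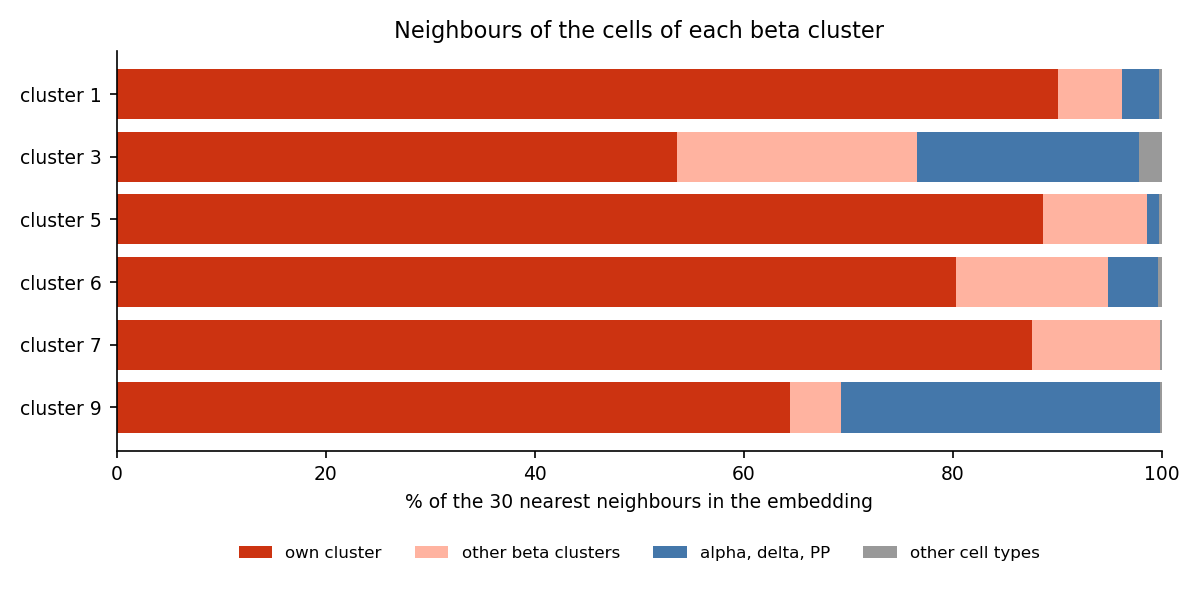
Classes of the 30 nearest neighbours in the embedding, as stacked percentages, for the cells of each of the 6 beta clusters. The blue part, alpha, delta and PP cells, is 0.0256% for cluster 7 and too thin to see, while it is 21.2% for cluster 3 and 30.5% for cluster 9.

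The cluster 3 cells that lay inside cluster 7 were mostly control high-fat cells. Of the cluster 3 cells, 149 (7.59%) had more than 50% of their neighbours in cluster 7, and 114 of them came from the control high-fat library. That is 13.3% of the cluster 3 cells of that library, against 5.85% in control normal diet, 3.51% in cKO normal diet batch 2 and 2.62% in cKO high-fat diet. In the reverse direction, 93 cluster 7 cells (6.49%) had at most 50% of their neighbours in cluster 7. Cluster 3 supplied 7.37% of the neighbours of cluster 7 cells on control normal diet, 11.9% on control high-fat diet and 15.3% on cKO high-fat diet. It supplied 20.0% for the 9 cells of batch 1 and 33.3% for the 4 cells of batch 2. In batch 1, 7 of the 9 cells had all their neighbours in cluster 7, so the 20.0% came from the other 2. A neighbourhood holding cluster 7 cells alone was found for 59.9% of the cluster's cells in control normal diet, 26.2% in control high-fat diet and 24.7% in cKO high-fat diet. This share was 77.8% for the 9 cells of batch 1 and 0% for the 4 cells of batch 2.

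Cluster 7 was among the more compact beta clusters. The median distance of its cells to their median position was 1.36 embedding units, beside 1.08 in cluster 9, 1.39 in cluster 5, 1.64 in cluster 6, 2.15 in cluster 1 and 2.53 in cluster 3. A radius of 2.21 units held 90% of its cells, beside 3.58 in cluster 1 and 6.16 in cluster 3. When cells closer than 0.5 units were linked, 1431 of the 1434 cells formed a single piece. A pair of cells, 1 of control normal diet and 1 of cKO high-fat diet, lay on the opposite side of the embedding, each with 28 of its 30 neighbours in cluster 5. By library the median distance to the library's own median position was 1.08 in control normal diet, 1.09 in control high-fat diet and 0.852 in cKO high-fat diet, each below the 1.36 of the cluster as a whole. The radius holding 90% of a library's cells was 2.52 in control normal diet, above the 2.21 of the cluster, and 1.92 and 1.75 in the control and cKO high-fat libraries.

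The libraries occupied different areas of the cluster. On the second embedding axis the median was -4.01 in control normal diet (middle 50% of cells from -4.50 to -3.01), -3.26 in control high-fat diet (-3.99 to -2.55) and -1.72 in cKO high-fat diet (-2.37 to -1.17). The middle 50% of the cKO high-fat cells thus lay outside that of both controls, while the full ranges overlapped. Library medians were 0.958 units apart between the control diets and 1.84 units apart between the genotypes on the high-fat diet. The same pairs were 1.57 and 0.0982 units apart in cluster 1 and 0.981 and 1.88 units apart in cluster 3.

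Neighbours from the same library were more frequent than the library's share of the cluster. Among the 30 nearest cluster 7 cells, those of cKO high-fat diet had 57.4% from their own library where its share gave 18.0%, a ratio of 3.19. The ratio was 2.02 for control normal diet (46.3% against 22.9%) and 1.27 for control high-fat diet (74.0% against 58.1%). Computed in the same way within the 5 other beta clusters, the ratio of cKO high-fat cells was between 1.14 and 1.60, and that of control normal-diet cells between 1.08 and 1.50. The ratio has a ceiling set by the library's share, so the closest comparison for cKO high-fat diet is cluster 6, with 241 such cells and an expected share of 16.3%, where 26.2% was observed. For control high-fat diet the ratio of 1.27 lay within the range of 1.13 to 1.45 in the other clusters. With neighbours and shares counted among all beta cells in place of cluster 7, the ratio was 3.04 for cKO high-fat diet, 1.20 for control normal diet and 1.79 for control high-fat diet, so that the order of both controls changed. None of these differences between clusters was tested.

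**Figure D5:**
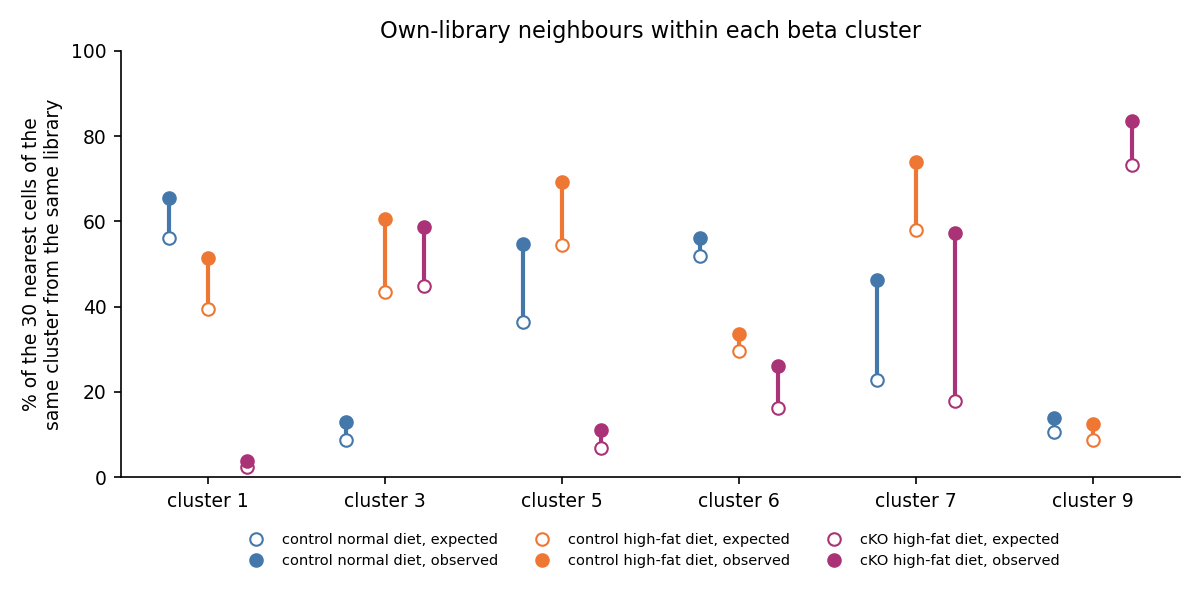
Percentage of the 30 nearest cells of the same cluster that came from the same library (filled) and the percentage expected from the library's share of the cluster (open), for the 3 larger libraries in each beta cluster. In cluster 7 the cKO high-fat library goes from 18.0% expected to 57.4% observed and the control normal-diet library from 22.9% to 46.3%.

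Taken 2 libraries at a time, the control diets mixed more than either did with the cKO high-fat library. Control normal-diet cells had 0.692 times the expected neighbours from control high-fat diet, and 0.373 times those from cKO high-fat diet. Control high-fat cells had 0.487 times the expected neighbours from cKO high-fat diet, a pair that shared the diet and was counted in the same batch. Of the cKO normal-diet cells, the 9 of batch 1 had 57.0% of their neighbours from control normal diet, where 23.0% was expected, and the 4 of batch 2 had 91.7% from control high-fat diet, where 58.1% was expected. The cKO high-fat library supplied 6.30% and 2.50% of their neighbours, where 18.1% was expected. Batch 2 supplied 1.48% of the neighbours of batch 1 cells where 0.279% was expected, and batch 1 supplied 0% of those of batch 2 cells where 0.628% was expected. These last shares rest on 9 and 4 cells. The median positions of both cKO normal-diet libraries were 2.85 units apart, and they lay 1.65 (batch 1) and 1.73 (batch 2) units from that of the cKO high-fat cells. Batch 1 lay 2.12 units from control normal diet and 2.36 from control high-fat diet. For batch 2 these distances were 1.87 and 0.914, so its nearest median was that of control high-fat diet. Beyond the batch in the cKO normal-diet titles, the sources used here do not give which libraries were prepared or sequenced together. The part of shared preparation or sequencing in the separation was not tested.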

How the data were processed

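The deposited tables, made by the authors, give each cell's library, genotype, diet, cell type, cluster and UMAP position. The deposited positions are scores with no physical unit. The submitters' processing notes name Cell Ranger (7.1.0) and GRCm39, a mouse build. For cell filters, doublet removal, integration and clustering, settings were not given in the sources used here. Sequencing depth is unknown, so cell numbers set the precision.

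Joining the 4 tables used the cell identifier, and sample titles gave each library's group. The cKO normal-diet libraries were matched to batches 1 and 2 of the titles by their number alone. This match decides whether 29.0% or 1.69% is counted as the within-batch share. Shares have exact 95% binomial intervals and log2 ratios have delta-method intervals, which cover counting error only. The 2 cKO normal-diet libraries were averaged with equal weight, and libraries without cells of the other cluster gave only a bound in cluster ratios. No p-value was computed from cells. Neighbours were the 30 nearest cells by Euclidean distance. No gene was named from values. Clusters, comparisons and alternatives were chosen with earlier results of these data known. The routines were tested on simulated data (Python 3.11.15, SciPy 1.17.1).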

Additional observations from a re-analysis of the deposited data

How the results depend on the processing

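Log2 ratios of the share of cluster 7 for diet in controls and for genotype on the high-fat diet kept their direction under all 4 alternatives run for each, namely 3 other denominators and the odds ratio. For genotype on the high-fat diet, the denominator without cluster 9 brought the log2 ratio to -0.11 (-0.30 to 0.07), within counting error. Comparisons of the share of beta cells that used the cKO normal-diet libraries turned with the library left out: the log2 ratio ranged from -1.23 to 2.87 for diet in cKO, from -2.14 to 1.96 for genotype on the normal diet and from -2.43 to 1.66 for the ratio of diet ratios. With the cells of both libraries summed, these were 1.35, -0.62 and 0.14. With cluster 9 left out of the denominator, diet in cKO gave 0.0040. Differences in mean share over the libraries ranged from -5.30 to 8.37 percentage points for genotype and from -3.46 to 10.2 for diet. Chosen after seeing the data were the batch block and the left-out libraries for cluster pairs. With batch as a block the differences in share of beta cells were 8.37 and -3.46. These equal the values without batch 2, since that batch as counted here holds a single library. For cluster 7 as a share of clusters 7 and 1 the differences with a library left out ranged from 14.9 to 62.7 for genotype and from -4.61 to 43.2 for diet, and as a share of clusters 7 and 3 from -42.9 to 3.81 and from -46.8 to -0.12. The log2 ratio to cluster 5 kept its direction for diet in cKO, at 2.34 to 2.82. For genotype on the normal diet it was -0.77 to -0.29 with a library left out, and each counting interval included 0. With both libraries it was -0.53 (-1.53 to 0.48). Adding 0.5 cells to each count brings in the batch 1 library. The log2 ratio to cluster 1 then went from 5.68 to 1.24 (-0.94 to 3.43) for diet in cKO. For genotype on the normal diet it changed sign, from -1.57 to 2.87 (0.70 to 5.03). To cluster 3 the log2 ratio changed sign for diet in cKO, from 2.07 to -2.05 (-4.22 to 0.13). For genotype on the normal diet it went from -4.78 to -0.66 (-2.84 to 1.53). In the embedding, 1.81% of cells had a neighbour that was not a beta cell with 10 neighbours and 13.9% with 100. The own-library ratio of control normal diet was 1.74 with 100 neighbours and 1.20 among all beta cells, where that of control high-fat diet was 1.79. The 90% radius, a wider measure of spread than the median distance, was 2.21. Limiting the spread to the largest piece was chosen after seeing the data and gave 1.36. The causes were not tested. The 9 and 4 cluster 7 cells of the cKO normal-diet libraries limit every value that uses them.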

Other observations

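Cluster 5 lay at the opposite end of the embedding from cluster 7 and was the sole other beta cluster, beside cluster 9, with cells in all 5 libraries. It was chosen for this comparison after its values had been seen. There were 0.523 cluster 7 cells per cluster 5 cell (0.456 to 0.599) in control normal diet, 0.886 (0.806 to 0.974) in control high-fat diet and 2.18 (1.75 to 2.73) in cKO high-fat diet. Cluster 5 itself held 19.4% of the control but 5.69% of the cKO beta cells on the high-fat diet. The cKO normal-diet libraries, which differed 17.1-fold in the share of cluster 7, had ratios of 0.429 (9 and 21 cells, 0.173 to 0.976) and 0.308 (4 and 13 cells, 0.0731 to 0.996). Both high-fat libraries were thus above the 3 normal-diet libraries, which was so for 1 of the 5 ratios of cluster 7 to another beta cluster. The upper limits of both cKO normal-diet ratios exceed the control high-fat value. On the high-fat diet the ratio was 1.69-fold higher in controls (1.44 to 1.99) and 5.99-fold higher in cKO mice (2.93 to 12.3). The log2 gap between the replicates was 0.48 (-1.49 to 2.45).

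Clusters 5 and 7 held 30 of the 31 beta cells of cKO normal diet batch 1, at both ends of the beta cell area. Of its 9 cluster 7 cells, 7 lay within 0.5 embedding units of their median position at the tip of the cluster. The same small area held 38 control normal-diet cells of cluster 7 (11.6% of that library's), 7 control high-fat cells (0.840%), 6 cKO high-fat cells (2.32%) and 3 cells of other clusters.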
